A study of Mus musculus with 2 samples.

Results

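Radial glia are the neural stem cells of the embryonic brain. Their cell bodies line the ventricle, a long process reaches the outer surface, and they divide to give neurons directly or through intermediate progenitors while newborn neurons migrate along the process. They are recognised by a set of proteins that covers intermediate filaments, a fatty acid carrier, a glutamate transporter, cell surface and matrix proteins, RNA-binding proteins and a small homeodomain protein. The 10 genes described here, Nes, Vim, Fabp7, Slc1a3, Ptprz1, Prom1, Tnc, Msi1, Msi2 and Hopx, are members of that set, taken by name out of 21911 named protein-coding genes of the mouse annotation. All 10 were found in it. Their GENCODE positions on mm10, with the strand, are chr3:87971078-87980451 for Nes (plus), chr2:13573927-13582826 for Vim (plus), chr10:57784881-57788450 for Fabp7 (plus), chr15:8634124-8710764 for Slc1a3 (minus) and chr6:22875502-23052916 for Ptprz1 (plus). The remaining ones are chr5:43993620-44102032 for Prom1 (minus), chr4:63959785-64047015 for Tnc (minus), chr5:115429599-115455698 for Msi1 (plus), chr11:88339382-88718513 for Msi2 (minus) and chr5:77086988-77115121 for Hopx (minus).

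The assay was DNase-seq. The enzyme DNase I cuts DNA where chromatin is open, and sequencing counts the cuts. The material was healthy midbrain of B6NCrl mouse embryos aged 14.5 days, males and females pooled. It formed 1 group of 2 biological replicates, so no condition could be compared. The labels name separate biosamples but the same donor entry for both, and their spread may be technical in part. Peaks are intervals of 150 bp (2 of replicate 1 are narrower) with the authors' signal value, a whole number up to 150, and a peak was called shared when it overlapped one in the other replicate's list by 1 bp or more.

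The lists differed in length. Replicate 1 held 710176 peaks with a median value of 6, and replicate 2 held 267958 peaks with a median value of 51. Of the replicate 2 peaks 171429 (64.0%) were shared. Values therefore rank peaks within a replicate, by percentile in its own list, and are not on one scale. Read depth is unknown. All 7 midbrain regulators examined had a shared promoter peak, and so did all 6 forebrain regulators and all 10 neuronal genes. Of other cell types and tissues the count was 4 of 6 for endothelium (not Cdh5 and Tek), 4 of 6 for mesenchyme (not Col3a1 and Lum), 3 of 6 for microglia (not Aif1, Csf1r and Cx3cr1), 2 of 6 for erythroid cells (not Alas2, Hba-a1, Hbb-bt and Klf1) and 2 of 6 for liver (not Alb, Apoa1, Fgb and Serpina1a). Of all protein-coding genes 68.9% had a shared promoter peak, so the endothelium and mesenchyme counts (66.7% each) were near that share. In bulk tissue, fewer cells with an open site and less opening per cell cannot be told apart.

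The strongest intronic peak of Nes is shown first, because the second intron of this gene is known for an enhancer that drives reporters in neural progenitors. It lies at chr3:87974396-87974545 (mm10, plus strand), 3.34 kb from the nearest annotated start, in an intron of 1.69 kb, and overlaps no exon. Capitals mark matches to TGGGAA, the core read by the Notch effector RBPJ, to the homeodomain core TAATTA, and to the octamer ATGCNAAT of POU factors, each searched on both strands. The homeodomain match at bases 99 to 104 and the POU match at bases 101 to 108, counted from the first printed base, overlap and are printed as 1 run.
Nes intron 2 peak: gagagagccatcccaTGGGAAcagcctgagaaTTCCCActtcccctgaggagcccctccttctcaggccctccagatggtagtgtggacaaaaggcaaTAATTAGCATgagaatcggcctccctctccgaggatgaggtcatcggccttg
Its value was 53 in replicate 1 and 113 in replicate 2. Matches to CAGATG and to the EBF consensus TCCCNNGG also lie in it. No exact match to the SOX core ACAANG does. The letters acaaaagg shortly before the last run of capitals come close to it, and looser SOX sites were not searched. A match describes letters and is not evidence of a bound factor.

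For each of the other 9 genes the strongest distal peak that overlaps no exon and holds a SOX or POU match is shown (for Hopx, 1 of 2 tied with the same values), because both factor families are known to act at progenitor enhancers. Capitals mark ACAANG (SOX) or ATGCNAAT (POU), on either strand, and every sequence is the plus strand of mm10 from the RefSeq GRCm38.p6 genome. The intervals are chr2:13572296-13572445 for Vim (1.56 kb upstream), chr10:57743656-57743805 for Fabp7 (41.2 kb upstream), chr15:8589836-8589985 for Slc1a3 (44.2 kb downstream), chr6:22834716-22834865 for Ptprz1 (40.7 kb upstream) and chr5:44048716-44048865 for Prom1 (intron 5). They are chr4:64005396-64005545 for Tnc (intron 10), chr5:115489936-115490085 for Msi1 (34.3 kb downstream), chr11:88481656-88481805 for Msi2 (intron 6) and chr5:77090556-77090705 for Hopx (intron 2).
Vim SOX: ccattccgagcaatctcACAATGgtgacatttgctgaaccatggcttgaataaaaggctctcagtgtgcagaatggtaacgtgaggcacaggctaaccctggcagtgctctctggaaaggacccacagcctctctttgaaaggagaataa
Fabp7 SOX: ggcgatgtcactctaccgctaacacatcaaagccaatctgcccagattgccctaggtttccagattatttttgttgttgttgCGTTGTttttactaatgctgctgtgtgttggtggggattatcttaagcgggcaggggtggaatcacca
Slc1a3 SOX: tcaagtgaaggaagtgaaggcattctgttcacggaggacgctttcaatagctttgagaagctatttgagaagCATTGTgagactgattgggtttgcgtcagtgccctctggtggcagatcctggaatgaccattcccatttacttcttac
Ptprz1 SOX: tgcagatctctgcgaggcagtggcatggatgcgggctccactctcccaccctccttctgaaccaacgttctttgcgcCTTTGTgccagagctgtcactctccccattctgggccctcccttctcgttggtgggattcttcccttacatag
Prom1 SOX: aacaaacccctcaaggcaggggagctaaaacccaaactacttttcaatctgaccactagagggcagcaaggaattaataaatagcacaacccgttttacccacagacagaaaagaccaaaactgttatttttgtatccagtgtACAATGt
Tnc POU: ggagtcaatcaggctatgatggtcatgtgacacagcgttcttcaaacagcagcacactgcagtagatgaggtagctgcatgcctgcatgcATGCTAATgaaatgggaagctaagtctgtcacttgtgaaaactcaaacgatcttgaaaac
Msi1 POU: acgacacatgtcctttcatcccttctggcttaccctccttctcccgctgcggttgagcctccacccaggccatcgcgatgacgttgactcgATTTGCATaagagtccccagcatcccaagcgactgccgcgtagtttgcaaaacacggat
Msi2 SOX: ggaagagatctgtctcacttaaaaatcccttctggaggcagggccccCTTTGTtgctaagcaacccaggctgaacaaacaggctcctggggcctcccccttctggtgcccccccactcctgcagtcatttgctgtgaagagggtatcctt
Hopx SOX: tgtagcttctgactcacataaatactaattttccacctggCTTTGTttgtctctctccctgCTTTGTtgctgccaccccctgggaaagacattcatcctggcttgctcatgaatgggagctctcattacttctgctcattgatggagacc
Among them the Msi1 peak was the strongest, with 83 in replicate 1 and 132 in replicate 2. The weakest were those of Vim (17 and 70), Tnc (17 and 54) and Hopx (18 and 61), while Slc1a3 (63 and 114), Msi2 (69 and 129), Fabp7 (53 and 106), Ptprz1 (52 and 115) and Prom1 (44 and 98) lay between.

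Every one of the 10 genes had an accessible promoter in both replicates. A shared peak lay within 1 kb of an annotated start in 10 of 10, against 68.9% of all protein-coding genes. Replicate 1 alone had a promoter peak in 10 of 10 members and 75.8% of all genes, and replicate 2 in 10 of 10 members and 72.4% of all genes. Their peaks were not especially strong among open promoters. The median of the strongest promoter value was 66.5 for the members and 91 for the 15103 genes with a shared promoter peak and a peak of each list in the window, in replicate 1, and 126 for the members and 137 for those genes in replicate 2. The mean percentile over both replicates ran from 89.3 to 98.5 with a median of 95.9 among members, while the median over all those genes was 97.9. Of the members, Ptprz1 and Nes ranked above the median of those promoters, at the 61.8th and 54.7th percentile of genes. Msi2 stood at the 49.9th, and the lowest member, Hopx, at the 14.6th. These ranks are of the mean percentile over both replicates. A second ranking was made in each replicate among all genes with a promoter peak there, and the ranks were averaged. The gene set and the rule for ties thus differed too. In it Msi2 lay at 52.6, above the median.

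**Figure D1:**
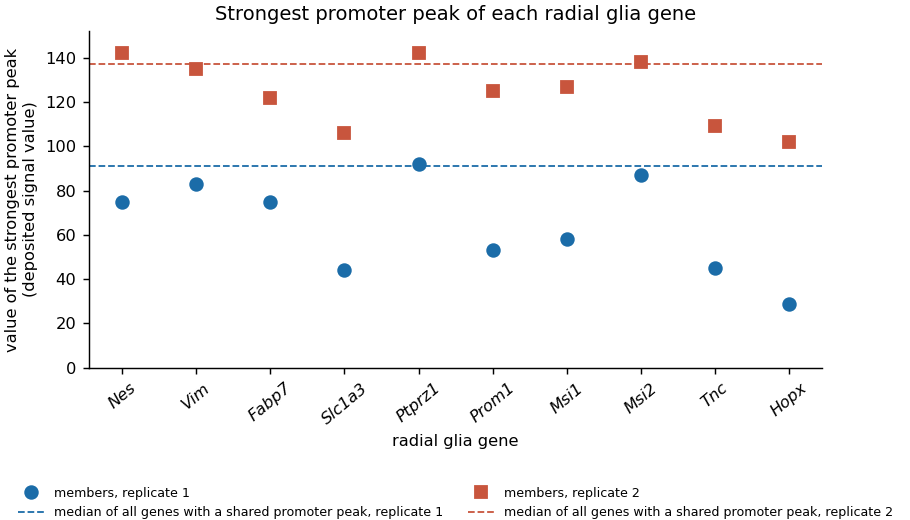
Value of the strongest promoter peak of each radial glia gene (vertical axis, the authors' deposited signal value) in replicate 1 (circles) and replicate 2 (squares); dashed lines are the medians over all genes with a shared promoter peak. In replicate 1 only Ptprz1 (92) reaches the line at 91, and in replicate 2 Nes (142), Ptprz1 (142) and Msi2 (138) lie above the line at 137.

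Nes encodes nestin, an intermediate filament protein of neural stem cells. Its strongest promoter peak had the value 75 in replicate 1 and 142 in replicate 2, centred 48 and 28 bp upstream of the nearest start. All 3 annotated starts lie within 1 open cluster, which held 3 shared peaks. Vim encodes vimentin, the filament protein that nestin assembles with. Its best values were 83 in replicate 1 and 135 in replicate 2, but they belong to neighbouring intervals. The peak at the gene's 5′ end read 83 and 117, and the one in exon 1 read 79 and 135, so the 2 replicates ranked these adjacent peaks in opposite order. A second, noncoding Vim start 5.44 kb downstream was also open, with best values of 14 and 59.

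The promoters of the fatty acid carrier and the glutamate transporter differed in strength and base composition. Fabp7 encodes brain lipid-binding protein. Its single shared promoter peak, at the same interval in both replicates, had the value 75 in replicate 1 and 122 in replicate 2. Only 8 CpG lie in the 500 bp around it, with 50% GC and an observed to expected CpG ratio of 0.256, the lowest ratio of the 10. Slc1a3 encodes GLAST, which clears glutamate into glial cells. Its strongest peak read 44 in replicate 1 and 106 in replicate 2 and lay in intron 1, 242 bp upstream of an alternative start. At the Slc1a3 promoter GC content was 42.0%, the lowest among the members. Counting GC over 55% together with a CpG ratio over 0.6 as CpG-rich, 6 of 10 members (60%) and 71.7% of the 15103 genes qualified.

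Surface and matrix genes included both the strongest promoter and one of the weakest. Ptprz1 encodes a receptor tyrosine phosphatase that carries chondroitin sulfate. It had the highest mean percentile of the 10, with 92 in replicate 1 and 142 in replicate 2. Prom1 encodes prominin-1, also called CD133, a membrane protein of apical protrusions. Its strongest peak within reach of a start read 53 in replicate 1 and 125 in replicate 2. The centre lies in intron 1, 1.01 kb downstream of the nearest annotated start, so this peak also counts as distal below. The peak in exon 1, within the first cluster of starts, read 36 and 100. Tnc encodes tenascin C, a matrix glycoprotein. A single promoter peak was found there, with 45 in replicate 1 and 109 in replicate 2.

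The 2 RNA-binding Musashi genes both had GC-rich promoters. Msi1 had 58 in replicate 1 and 127 in replicate 2, in a stretch with 82.2% GC and 75 CpG, the most of any member. Msi2 had 87 and 138, with 76.6% GC and 63 CpG. Hopx, an atypical homeodomain protein without DNA binding of its own and a known mark of outer radial glia in human cortex, had the weakest promoter. Its best value was 29 in replicate 1 and 102 in replicate 2, at different peaks. These lay at the internal start cluster 19.8 kb downstream, while the 5′ start read 28 and 98.

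Promoter sequences are printed for Fabp7, the member with the fewest CpG, and for Nes and Tnc, whose promoter peaks hold GC boxes and a POU octamer. They are the parts of the peaks before the first base of the gene, on the gene's strand, from RefSeq GRCm38.p6, at chr3:87970976-87971077 (plus) for Nes, chr10:57784756-57784880 (plus) for Fabp7 and chr4:64047016-64047145 (minus) for Tnc. Capitals mark the GC box GGGCGG in Nes, the SOX core ACAANG and the CCAAT box in Fabp7, and the POU octamer ATGCNAAT in Tnc, in either orientation.
Nes promoter: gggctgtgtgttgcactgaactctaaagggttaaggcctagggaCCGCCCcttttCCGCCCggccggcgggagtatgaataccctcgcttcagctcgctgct
Fabp7 promoter: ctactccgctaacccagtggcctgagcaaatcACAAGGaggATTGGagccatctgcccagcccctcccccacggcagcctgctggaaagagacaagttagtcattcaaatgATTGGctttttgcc
Tnc promoter: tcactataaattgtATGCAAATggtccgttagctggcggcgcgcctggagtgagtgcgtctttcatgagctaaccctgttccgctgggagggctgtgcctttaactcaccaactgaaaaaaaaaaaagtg
Nes holds 2 GC boxes and Fabp7 2 CCAAT boxes in reverse orientation. RefSeq promoters, 250 bases before to 50 after a start, matched 9 of the 10 genes (not Msi1) with 14 windows. GC boxes were in 9 of the 14 windows and 35.7% of 32851 windows of all genes, and CCAAT boxes in 9 of 14 and 37.4% of all. The POU octamer was in 3.15% of all windows and in 2 of the 14, both of Tnc. Windows of 1 gene overlap, so these are not independent.

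Alternative starts were mostly closed. The 61 distinct starts of 67 transcripts fell into 27 clusters, of which 14 had a shared peak and 13 had none. All 10 first clusters were open. Internal clusters with a shared peak belonged to Vim, Prom1, Msi1 and Hopx. At Prom1 the second cluster, 2.81 kb downstream, had 1 shared peak of 8 in replicate 1 and 43 in replicate 2, beside a stronger peak of 26 in replicate 1 alone, and the 6 clusters farther in had no shared peak. Msi1 had a second open cluster 3.79 kb downstream, with best values of 26 and 91 and 6 shared peaks. The clusters without one were 2 of Slc1a3, 3 of Ptprz1, 6 of Prom1 and 1 each of Msi2 and Tnc. Of these 13, 3 had peaks in replicate 1 only. The best such value was 23 at the Msi2 start 128 kb downstream, and 6 at Slc1a3 and at Prom1. The internal Tnc start 26.3 kb downstream, which carries 3 transcripts, had no peak in either list.

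Around the genes, the 10 loci held 291 shared peaks. A locus is the gene body with 50 kb on either side. Of the peaks 34 lay within 1 kb of a protein-coding start of the member itself, 18 at the start of another protein-coding gene, and 239 were distal, more than 1000 bp from any protein-coding start. The distal class includes 4 peaks within 1 kb of noncoding starts of the member, 2 at Vim and 2 at Msi1, so 38 lay within 1 kb of any start of the member. Of the distal peaks 140 lay in introns of the member, 4 in exons, 38 upstream and 57 downstream. Msi2 held 92 of the intronic ones, and in the other 9 loci 48 of 131 distal peaks (36.6%) were intronic. Introns held most of the distal peaks in 4 loci, those of Msi2, Ptprz1, Tnc and Hopx. Of all 239 distal peaks 15 lay inside another protein-coding gene. The median locus held 16 shared peaks among members and 12 among all genes, and 12.5 distal peaks among members and 7 among all genes. Since long genes have long windows, density is the better measure: 11.0 shared peaks per 100 kb for the median member and 8.53 for the median gene. Above that median were 7 of the 10. Distal peaks alone gave 8.61 per 100 kb for the median member and 5.02 for the median gene, with 9 of the 10 above.

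**Figure D2:**
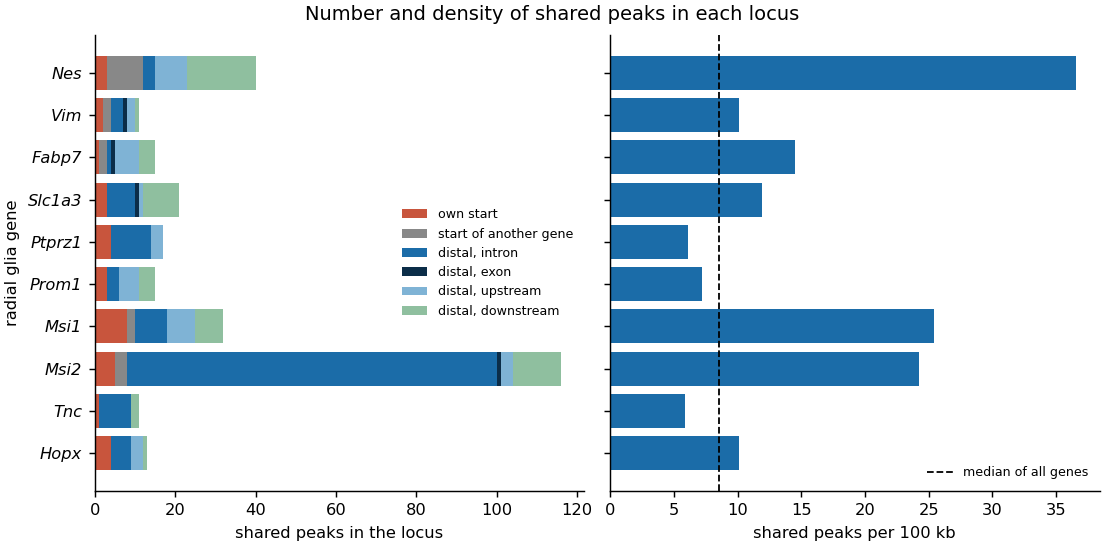
Shared peaks of each radial glia gene, from 50 kb upstream to 50 kb downstream, by class (left, number of peaks; own starts are protein-coding starts of the member) and per 100 kb (right, dashed line at the median of all genes, 8.53). Msi2 has the most peaks (116) and Nes the highest density (36.6 per 100 kb); Ptprz1, Prom1 and Tnc lie left of the line.

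The Nes locus was the densest. It held 40 shared peaks, or 36.6 per 100 kb, a density at the 99.5th percentile of all genes, in a window shared with 5 other gene starts (Rrnad1, Isg20l2, Crabp2, Bcan and Hapln2). Of these peaks 9 sat at those other starts and 13 of the 28 distal ones inside other genes. Bcan encodes brevican, a matrix proteoglycan of glia, and Hapln2 a link protein, so peaks near them cannot be assigned to Nes by position. The strongest distal peak, chr3:87960936-87961085, lay 10.1 kb upstream of Nes and in no gene. It read 104 in replicate 1 and 139 in replicate 2, above the Nes promoter in replicate 1 (75) and just below it in replicate 2 (142). Of all other distal shared peaks only 0.353% had a higher mean percentile. A peak 6.72 kb downstream read 93 and 133. Within the gene, intron 1 held 2 distal peaks of up to 33 and 82, and intron 2 the 1 printed above.

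Vim had 11 shared peaks. The strongest distal one, in intron 2 at chr2:13575616-13575765, read 53 in replicate 1 and 119 in replicate 2 and overlaps an exon. A neighbour in the same intron read 39 and 102. Only Trdmt1 starts in the same window. Fabp7 had 15 shared peaks in a gene of 3.57 kb, so 10 of its 12 distal peaks lay outside it. The strongest was chr10:57822596-57822745, 34.2 kb downstream, with 55 in replicate 1 and 112 in replicate 2. A group about 41 kb upstream followed, with 53 and 106 at its best peak, printed above, and 43 and 95 beside it. The peak 1.43 kb upstream of the start read 34 and 89. Smpdl3a is the other gene that starts in this window.

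At Slc1a3 the distal peaks gathered at the 3′ end. Of 18 distal peaks 9 lay downstream, 7 in introns, 1 in an exon and 1 upstream. The strongest, chr15:8629356-8629505, lay 4.69 kb beyond the gene end and read 80 in replicate 1 and 135 in replicate 2, above the promoter (44 and 106) in both. Another 44.2 kb downstream, printed above, read 63 and 114, and one 8.59 kb downstream read 44 and 115. No other protein-coding gene starts in the Slc1a3 window. Intron 3 held 5 distal peaks, the best with 36 and 90 and with 35 and 92.

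The surface and matrix genes had fewer shared peaks per 100 kb than the median gene. For distal peaks alone, Prom1 (5.76 per 100 kb) and Tnc (5.34) lay above the median of all genes, 5.02, and Ptprz1 (4.69) lay below it. Across 277 kb Ptprz1 had 17 shared peaks, 6.13 per 100 kb. Its 13 distal peaks were 10 intronic and 3 upstream, with none downstream. The strongest, 40.7 kb upstream, read 52 in replicate 1 and 115 in replicate 2, and its neighbour 41.7 kb upstream read 61 and 111. In intron 8 a peak read 58 and 110, upstream of a noncoding start that itself had no shared peak within 1 kb. Tnc had 11 shared peaks in 187 kb, 5.88 per 100 kb, the lowest density of the 10. Its strongest distal peak, chr4:63948156-63948305, lay 11.6 kb downstream and read 54 and 110. The next, in intron 13, read 24 and 76. Prom1 had 15 shared peaks, 7.20 per 100 kb. After the intron 1 peak (53 and 125) came the one in intron 5 printed above (44 and 98), with only 1 more distal peak in its introns, in intron 2 (14 and 50). Fgfbp1 starts in the Prom1 window, whereas none but the member starts in those of Ptprz1 and Tnc.

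**Figure D3:**
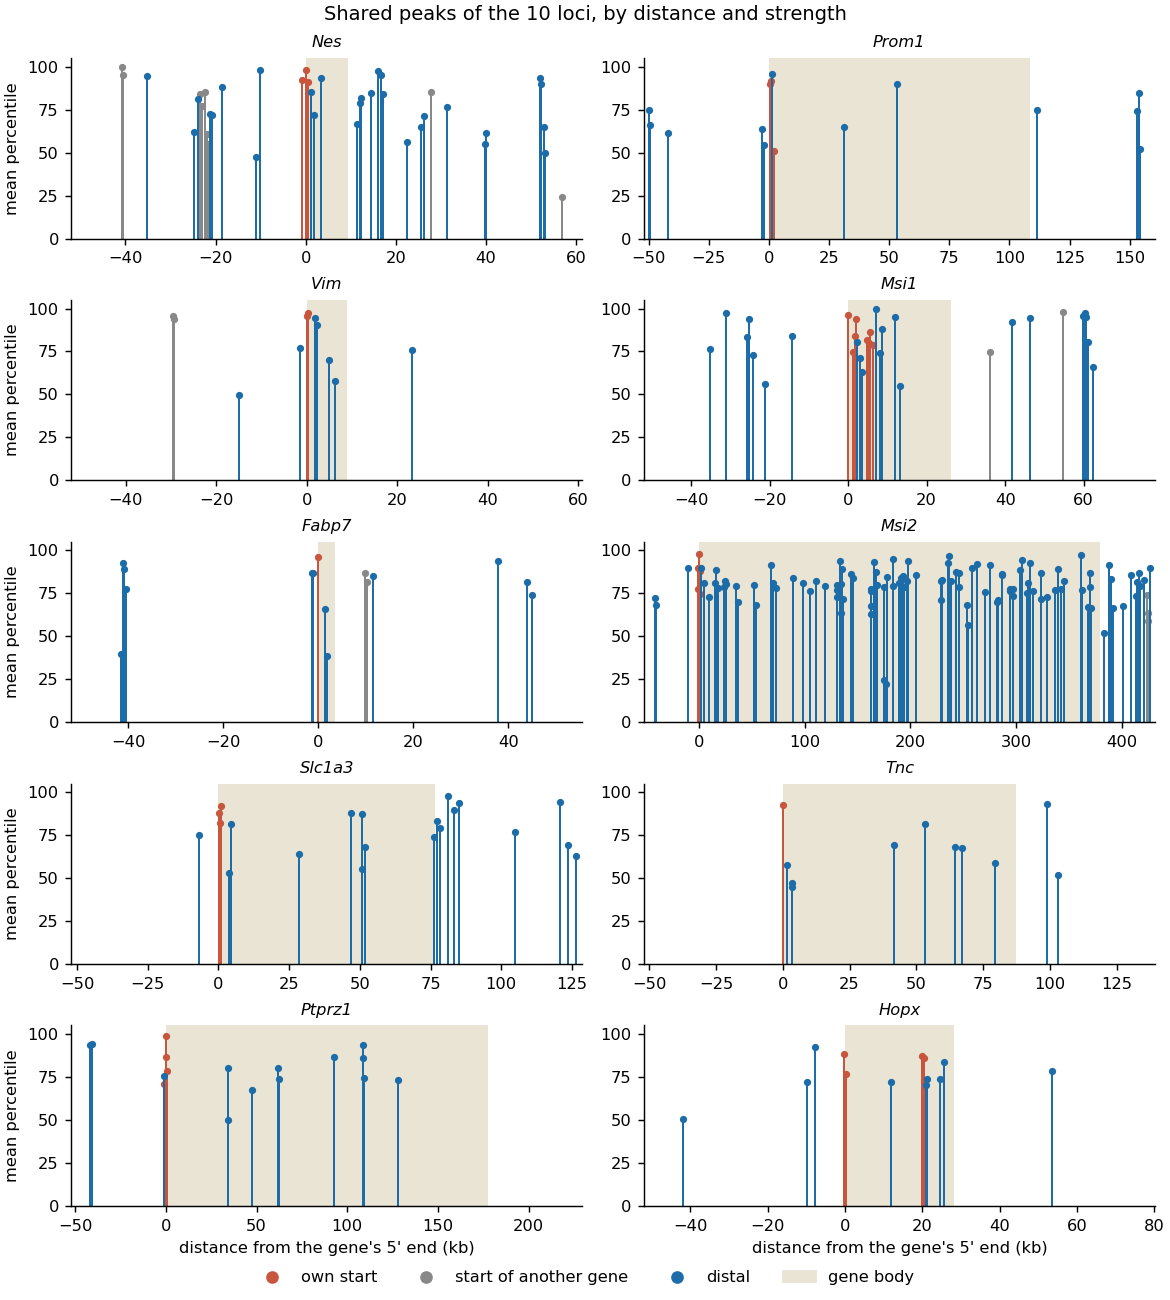
Shared peaks of each locus by distance from the gene's 5′ end (horizontal axis, kb, along the gene's strand) and mean percentile of the peak value over both replicates (vertical axis); colours give the class and shading the gene body. Peaks of Msi2 run through the whole gene, and Fabp7 has a group about 41 kb upstream. At Slc1a3, 9 of 18 distal peaks lie past the gene end.

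Msi1 and Msi2 encode closely related RNA-binding proteins that act on translation in progenitors, and both loci were dense. Msi1 had 32 shared peaks, 25.4 per 100 kb, and Msi2 116, 24.2 per 100 kb. These densities stood at the percentiles 97.2 and 96.6 of all genes. The strongest distal peak of all 10 loci was in Msi1 intron 6, chr5:115436536-115436685, with 117 in replicate 1 and 147 in replicate 2. Both values exceed those of the Msi1 promoter (58 and 127). Only 0.0399% of other distal shared peaks had a higher mean percentile. It overlaps an annotated exon and lies 1614 bp from the nearest coding start, so a window of 2000 bp would count it as a promoter peak. Farther out, a peak 31.0 kb upstream read 89 and 130, and the one printed above, 34.3 kb downstream and 5.29 kb from the Sirt4 start, read 83 and 132. The shared peaks on either side of the printed one (76 and 118, 78 and 115) overlap annotated exons and are centred in no protein-coding gene. Noncoding starts were not used in calling peaks distal. Pla2g1b also starts in the window.

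Msi2 spans 379 kb and held 108 of the 239 distal peaks. In its introns lay 92 of them: 19 in intron 5 (122 kb), 35 in intron 6 (110.0 kb), 19 in intron 7 (66.0 kb) and 19 in the shorter introns. Intron 6 was thus the most populated. The strongest, chr11:88356996-88357145 in intron 11, read 95 in replicate 1 and 132 in replicate 2, near the promoter's 87 and 138. Intron 6 peaks read up to 69 and 129, intron 7 peaks up to 58 and 106, and intron 5 peaks up to 46 and 104. Ccdc182 is the only other protein-coding gene with a start there.

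Hopx had 13 shared peaks, of which 9 were distal. The strongest, chr5:77122756-77122905, lay 7.71 kb upstream and read 49 in replicate 1 and 108 in replicate 2, above the best values of either Hopx start (29 and 102). In intron 2 there were 4 distal peaks, the best with 33 and 78. No other protein-coding gene starts in the window.

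Distal peaks of the loci had higher median values than distal peaks elsewhere. Their median value was 21 in the 10 loci and 18 in the 140190 other distal shared peaks in replicate 1, and 72 in the 10 loci and 60 in those peaks in replicate 2. The median of the mean percentile was 79.2 in the loci and 72.3 elsewhere. Above 92.1, the mean percentile that 10% of other distal peaks exceed, lay 36 of the 239 (15.1%), with at least 1 in each of the 10 loci. Peaks of 1 locus share their surroundings and Msi2 holds 108 of them, so these medians describe the loci and were not tested.

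The replicates listed different numbers of peaks around these genes. Replicate 1 listed 954 peaks and replicate 2 403 in the 10 loci. The ratio of replicate 1 to replicate 2 counts ran from 0.903 at Ptprz1 to 4.78 at Hopx, with a median of 1.84 for members and 1.79 for all genes. Of the replicate 2 peaks between 54.8% (Ptprz1) and 80.6% (Msi2) were shared, the median being 70.1% for members and 66.7% for all genes. Within each locus Spearman's correlation of the values in both replicates over the shared peaks was 0.794 (Msi2, n = 116) to 0.931 (Msi1, n = 32), a description over peaks of the same libraries. Peaks of 1 replicate alone numbered 660 in replicate 1 and 112 in replicate 2. Of these, 34 (5.15%) and 34 (30.4%) lay within 150 bp of a peak of the other replicate. At some loci the strongest were of that kind. The highest Msi2 peak of replicate 1 alone (60) and that of replicate 2 alone (106) lay 30 bp apart, and those of Hopx (22 and 87) 10 bp apart.

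**Figure D4:**
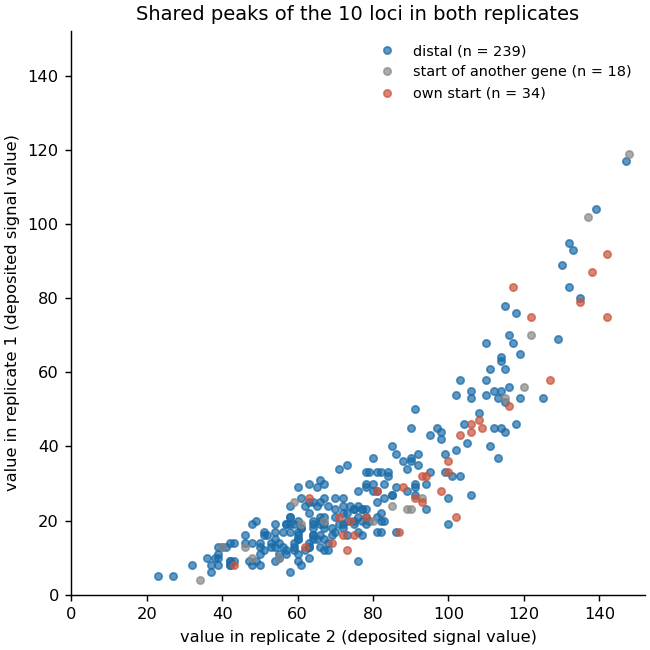
Values of the 291 shared peaks in replicate 2 (horizontal axis) and replicate 1 (vertical axis), both as deposited signal values, coloured by class. The points rise along a bent band, and the distal Msi1 peak (147 in replicate 2, 117 in replicate 1) stands with the strongest.

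Motif matches were counted as exact letters on either strand in the 150 bp of each distal peak. The SOX core ACAANG was in 72 of 239 (30.1%, exact 95% interval 24.4 to 36.4), against 31.4% of other distal shared peaks and 27.8% of windows 1000 bp to each side. It was found in all 10 loci, and the interval held both of the other shares. The POU octamer ATGCNAAT was in 12 (5.02%, 2.62 to 8.61), against 3.90% of other distal peaks and 1.46% of flanks, in 7 of the loci. The NFI half-site TTGGC, read by nuclear factor I proteins of the glial lineage, was in 91 (38.1%, 31.9 to 44.6), against 31.3% and 23.0%. Of those 91, 46 lay in Msi2, where 42.6% of 108 peaks held it, and 34.4% of the 131 peaks of the other 9 loci did. TTGGC overlaps a CCAAT match where that match reads ATTGG in reverse and a C follows. The CCAAT box itself was in 20.9%, against 19.2% and 18.8%.

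Of the 17 motifs, the interval lay above the share of other distal peaks for NFI and for the CRE half-site, with no test. RBPJ TGGGAA was in 18.0%, against 15.9% of other distal peaks and 14.4% of flanks. The CRE half-site TGACG was in 11.7% (7.93 to 16.5), against 7.37% and 5.44%. The EBF consensus TCCCNNGG was in 15.5% (11.1 to 20.7), against 11.8% and 6.28%, and 25 of its 37 peaks lay in Msi2 (23.1% of that locus and 9.16% of the other 9). E-boxes read CAGCTG in 14.2% against 15.2% and 8.16%, CAGATG in 10.9% against 15.4% and 14.6%, and CACGTG in 3.35% against 3.07% and 2.51%. The homeodomain core TAATTA (5.02% against 5.75% and 3.77%), RFX GTTGCC (7.95% against 8.64% and 5.23%), TEAD GGAATG (24 of 239 peaks against 9.12% and 7.74%), AP-1 TGANTCA (6.69% against 5.09% and 4.18%) and TCF/LEF TTCAAAG (4.60% against 4.60% and 2.30%) had intervals that held the value of other distal peaks. So did the GC box GGGCGG (4.60% against 5.58% and 3.97%) and the CTCF core (4.18% against 4.66% and 0.628%). Median GC content was 50.7% in the loci and 49.3% elsewhere. Intervals cover counting error only.

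**Figure D5:**
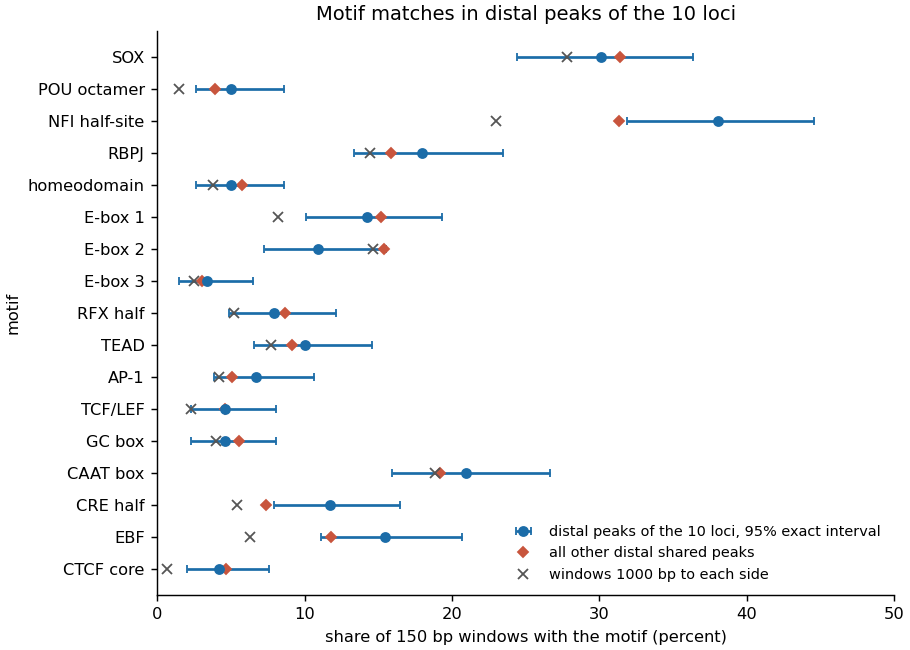
Share of 150 bp windows with each motif (horizontal axis, percent) in the 239 distal peaks of the 10 loci (circles, bars are exact 95% intervals), in 140190 other distal shared peaks (diamonds) and in windows 1000 bp to each side (crosses). E-boxes 1 to 3 follow the order in the text. The NFI half-site bar (31.9 to 44.6) lies above the diamond at 31.3, and the SOX bar covers both of its other marks.

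Other genes known from radial glia and progenitors gave a similar picture, which was not particular to them. Of 24 other radial glia and progenitor genes 23 had a shared promoter peak (95.8%), against 68.9% of all genes. Their strongest promoters were those of Dbi, an acyl-CoA-binding protein (127 in replicate 1 and 146 in replicate 2), the inhibitor of differentiation Id4 (116 and 147) and glutamine synthetase Glul (123 and 145), each above all 10 members in both replicates. The exception was Aldh1l1, a folate enzyme used as an astrocyte marker, which had peaks of 14 and 81 that did not overlap. The median of the mean percentile was 95.9 for the 10 members and 96.9 for the 23, and the median locus held 12.5 distal peaks for members and 15 for the 24. Neuronal genes (98.2 and 14.5 distal peaks) and midbrain regulators (97.4 and 37) lay above the members in both. Per 100 kb, however, the median of distal peaks was 7.73 for neuronal genes, below the 8.61 of the members. It was 18.9 for midbrain regulators and 10.2 for the 24 progenitor genes. The forebrain, endothelium, microglia, erythroid, mesenchyme and liver lists had lower medians of the mean percentile than the members. In median distal peaks, forebrain (15) and microglia (15) lay above the members (12.5). Endothelium (9), mesenchyme (6), erythroid (4.5) and liver (4) lay below. Per 100 kb the forebrain median (14.2) lay above that of the members (8.61), and those of the rest lay below.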

How the data were processed

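DNase-seq of 2 midbrain replicates was deposited as mm10 peak and hotspot lists, called per replicate. Per the labels the assembly is mm10. Which aligner and peak caller made the lists is not given in the sources used here. The value of a peak is a score made by the authors, deposited as a whole number up to 150. In the hotspot lists the authors deposited a −log10 q value, capped at 100. Information files that hold no measurements were not used.

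Coordinates are 1-based. The annotation was GENCODE M21 and the sequence RefSeq GRCm38.p6, in which 99.9% of 59255 start codons read ATG. Peaks of both replicates that overlap by at least 1 bp were called shared and take the replicate 2 interval. Percentiles are within a replicate's own list. Base composition was read over 500 bp and motifs over 150 bp, with exact Clopper-Pearson 95% intervals. Of the 17 motifs the CTCF core was added after the data were seen. No hypothesis was tested, since there is 1 group, and p-values are not given. Named items were all members, their strongest promoter and distal peaks, their starts, other genes starting in their windows, and listed marker genes without a shared promoter peak. For progenitor genes the 3 strongest promoters were named too. The members and lists were chosen with earlier results of these data known. Tools were pandas 2.3.3 and scipy 1.17.1 under Python 3.11.15. The overlap, promoter peak, locus count and motif matching steps (CTCF aside) were tested on simulated data, and the other steps were not. Depth is unknown.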

Additional observations from a re-analysis of the deposited data

How the results depend on the processing

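The count of 10 members with a shared promoter peak was 10 under all 8 alternatives: windows of 500 and 2000 bp, the 5′ end alone, an overlap of 75 bp, values at or above the replicate median, hotspots, and either replicate left out. The wider window and leaving out replicate 1 could not lower this count, and leaving out replicate 2 hardly could. The median percentile of the strongest promoter peak, 95.9, stayed within 1 SD between replicates (2.06) under 5 alternatives. It became 35.4 when ranked among the strongest promoter peaks of all genes, and 94.7 to 97.6 with 1 replicate left out. These last values were all but bound to stay within the SD, which comes from the same replicates. The median of 16 shared peaks per locus lay between 11.0 (per 100 kb) and 24 (100 kb either side) under 7 alternatives. Leaving out 1 replicate gave 26 to 38.5, since peaks then need no partner, while all genes had 18 and 30. The SOX share of 30.1% was 49.8% in windows of 300 bp, where other distal peaks had 52.1%, and 28.7% to 29.0% with 1 replicate left out. Replicate 1 alone gave an NFI share of 27.4%, with 24.9% elsewhere, and a CRE half-site share of 6.96%, with 4.96% elsewhere. For single genes, all 10 promoter percentiles changed by more than the spread between replicates when ranked among genes. In other settings they moved beyond the spread between replicates at Prom1 (89.8 with 500 bp, 91.9 at the 5′ end) and Msi1 (99.6 with 2000 bp). Leaving out 1 replicate could not move a gene that far, because its spread comes from the same replicates. Of 90 recomputed counts for single loci 27 differed by over 1.5 times. All 10 did so without replicate 2 (Nes 158 against 40, Hopx 86 against 13) and 3 without replicate 1. With 20 kb either side 4 did (Nes 20), and Tnc fell to 6 at the stricter value and 7 at 75 bp, against 11. No paired analysis was possible because there is 1 group. Unknown depth limits every statement on peaks that are missing from a list.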

Other observations

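The hotspots, wider regions of raised cutting, gave another measure of the same promoters. The one under the strongest promoter peak carried the highest listed −log10 q of 100 in both replicates for all 10 radial glia genes, with no rank among them. The share of all genes with a promoter hotspot at this cap was not counted, so the value does not set the members apart. In replicate 1 their widths ran from 312 bp at Slc1a3, the glutamate transporter, to 3800 bp at the RNA-binding gene Msi2. In replicate 2 they ran from 904 bp at the matrix gene Tnc to 4565 bp at the filament gene Vim. The order differed between the replicates, since Msi2 had 1607 bp in replicate 2 and Vim 2253 bp in replicate 1, and no width order held for both.

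Other genes that start in the same windows were open to different degrees. The strongest of their promoter peaks lay in the Nes window, within Rrnad1 and 84 bp from the Isg20l2 start, with 119 in replicate 1 and 148 in replicate 2, above all 10 radial glia promoters. The peak at Sirt4, a mitochondrial sirtuin next to Msi1, read 102 and 137, and the best at Trdmt1, next to Vim, read 70 and 122. Weak ones included Crabp2, a retinoic acid-binding protein gene next to Nes (23 and 89 at the start), Bcan (23 and 90) and Hapln2 (4 and 34). No shared peak was centred within 1 kb of the start of Fgfbp1, next to Prom1.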
